A study of Homo sapiens with 18 samples.

Results

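The circadian clock genes described here are CLOCK, BMAL1, PER1, PER2, PER3, CRY1, CRY2, NR1D1, NR1D2 and DBP, and their members were all probe sets that the annotation of the array gives to these 10 genes, 25 of 54675. A probe set is a group of short probes against 1 transcript or several related ones, and its log2 signal is the base-2 logarithm of its brightness. Cells of the human neuroblastoma line SH-SY5Y were differentiated in 10 μM retinoic acid for 7 days and then kept in medium free of it for 24 h. They were exposed for 30 min to 0, 1 or 5 μM cocaine, and harvested 6 h or 24 h later. The 0 μM dishes are called untreated, and all groups shared the line, the retinoic acid and its withdrawal. Each of the 18 arrays held RNA pooled from 3 dishes, with 3 arrays per dose and time, so a p-value here measures the spread between pools of 1 cell line. The question put to these arrays was whether cocaine at either dose was followed by a different level of a clock transcript, at 6 h and at 24 h separately, because the 2 times were normalized apart.

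The circadian clock is a loop of transcription factors that feeds back on itself about once a day. CLOCK and BMAL1 bind DNA together and switch on the PER and CRY genes, whose proteins then block CLOCK and BMAL1. The same pair switches on NR1D1 and NR1D2, which encode REV-ERB alpha and REV-ERB beta, repressors that bind the BMAL1 promoter in competition with the activating ROR receptors. DBP is an output of the loop, an activator that acts through a D-box. In cultured cells each dish can keep its own phase, and serum, cAMP and other stimuli reset it, with PER1 and PER2 among the genes that respond within hours. In a pool of dishes, a lower amplitude or fewer cells in 1 phase cannot be told apart from less RNA per cell.

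All 10 genes were measured. At 6 h, 16 of the 25 probe sets had a mean above the signal filter of 40 (5.32 on the log2 scale), at least 1 for each gene, and the same number passed at 24 h. The other 9 at each time belonged to 5 genes, with values from 2.81 to 4.70 at 6 h and from 2.94 to 5.22 at 24 h. The annotation gives 18 of the 25 probe sets to 1 gene and 7 to several. All 4 PER1 probe sets were annotated to both PER1 and MIR6883, a microRNA gene that lies inside PER1 in RefSeq. All 3 NR1D1 probe sets were annotated to both NR1D1 and THRA, the thyroid hormone receptor alpha gene, which overlaps NR1D1 on the opposite strand. The signal of these 7 probe sets cannot be assigned to 1 gene from the annotation alone.

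The promoters of the members that the 6 h results turn on are shown to place the elements that tie the loop together. Each window runs from 250 bases before to 50 bases after a transcription start, 5′ to 3′ on the strand of the gene, from RefSeq on GRCh38.p14. Capitals mark an E-box (CACGTG), an E′-box (CACGTT), a D-box (TTATGTAA), the half-site bound by REV-ERB and ROR (AGGTCA) or a cAMP response element (TGACGTCA), each searched on both strands.
NR1D1, chr17:40100540-40100839, minus strand: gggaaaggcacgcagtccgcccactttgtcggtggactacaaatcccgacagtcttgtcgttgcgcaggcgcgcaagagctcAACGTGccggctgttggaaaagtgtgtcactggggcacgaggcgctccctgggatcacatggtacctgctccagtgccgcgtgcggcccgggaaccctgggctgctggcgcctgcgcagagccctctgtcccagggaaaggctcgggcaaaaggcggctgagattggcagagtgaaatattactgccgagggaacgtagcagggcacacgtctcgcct
BMAL1, chr11:13277540-13277839, plus strand: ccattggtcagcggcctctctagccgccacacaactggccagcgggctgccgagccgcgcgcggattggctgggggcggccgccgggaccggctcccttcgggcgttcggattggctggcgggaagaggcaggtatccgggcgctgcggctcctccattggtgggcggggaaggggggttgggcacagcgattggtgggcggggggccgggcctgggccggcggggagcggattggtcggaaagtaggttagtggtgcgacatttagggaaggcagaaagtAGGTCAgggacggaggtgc
NR1D2, chr3:23945871-23946170, plus strand: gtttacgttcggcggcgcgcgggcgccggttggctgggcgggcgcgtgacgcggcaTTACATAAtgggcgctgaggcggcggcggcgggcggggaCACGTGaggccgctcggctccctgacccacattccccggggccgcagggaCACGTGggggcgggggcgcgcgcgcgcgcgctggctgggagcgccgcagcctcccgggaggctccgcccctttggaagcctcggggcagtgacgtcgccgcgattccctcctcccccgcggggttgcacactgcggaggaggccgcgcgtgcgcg
PER2, chr2:238288561-238288860, minus strand: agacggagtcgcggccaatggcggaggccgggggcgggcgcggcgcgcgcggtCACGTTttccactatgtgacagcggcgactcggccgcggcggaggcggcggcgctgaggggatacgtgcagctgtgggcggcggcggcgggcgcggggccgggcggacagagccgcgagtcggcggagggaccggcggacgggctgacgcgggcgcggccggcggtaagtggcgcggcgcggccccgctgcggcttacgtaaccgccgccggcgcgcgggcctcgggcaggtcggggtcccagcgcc

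The NR1D1 and PER2 windows each held 1 E′-box, at positions -168 and -197 from the start. The NR1D2 window shown held 1 D-box and 2 E-boxes, and the BMAL1 window shown held 1 half-site 31 bases after the start. A further window of BMAL1 and of NR1D2 held none of these elements and is not shown. Over the 15 windows of the 10 genes, of which several belong to 1 gene and some overlap, E-boxes were found for NR1D2 and PER1 and E′-boxes for CLOCK, CRY1, CRY2, NR1D1 and PER2. D-boxes were found for NR1D2 and PER3 and the half-site for BMAL1, CRY2 and PER1, and no window held the cAMP response element. By window, 2 of the 15 held the E-box, 5 the E′-box, 2 the D-box, 4 the half-site and 0 the cAMP response element. Of the 35116 windows of all genes, 7.26% held the E-box, 5.34% the E′-box, 0.886% the D-box, 13.8% the half-site and 1.85% the cAMP response element. No 2 of these matches in the windows of the members overlapped, and a match describes letters and not binding.

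At 6 h, 1 clock probe set of 16 differed between 5 μM and untreated cells in limma at an adjusted p under 0.10, which is 6.25% of them, against 2.98% of all 22455 probe sets tested (1.57% higher and 1.42% lower). It was 31637_s_at, annotated to both NR1D1 and THRA, and it was higher after cocaine. Without regard to the threshold, 4 of 16 had an unadjusted p under 0.05 (25% against 17.2% of all), and the 5 μM and untreated arrays did not overlap for 5 of 16 (31.2% against 21.2%). Of these 5, 2 were higher and 3 lower, where 8.09% of all were higher and 13.1% lower without overlap. The median difference of the 16 was -0.02 on the log2 scale, and that of all probe sets was also -0.02. With the replicate number as a block, 4 of 16 were called (25% against 18.6%). These were 31637_s_at and PER2, both higher, and 1 probe set each of BMAL1 and NR1D2, both lower, where 7.75% of all were called higher and 10.9% lower. Among the 13 of the 16 annotated to 1 gene only, 0 were called without the block (0%) and 3 with it (23.1%).

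**Figure D1:**
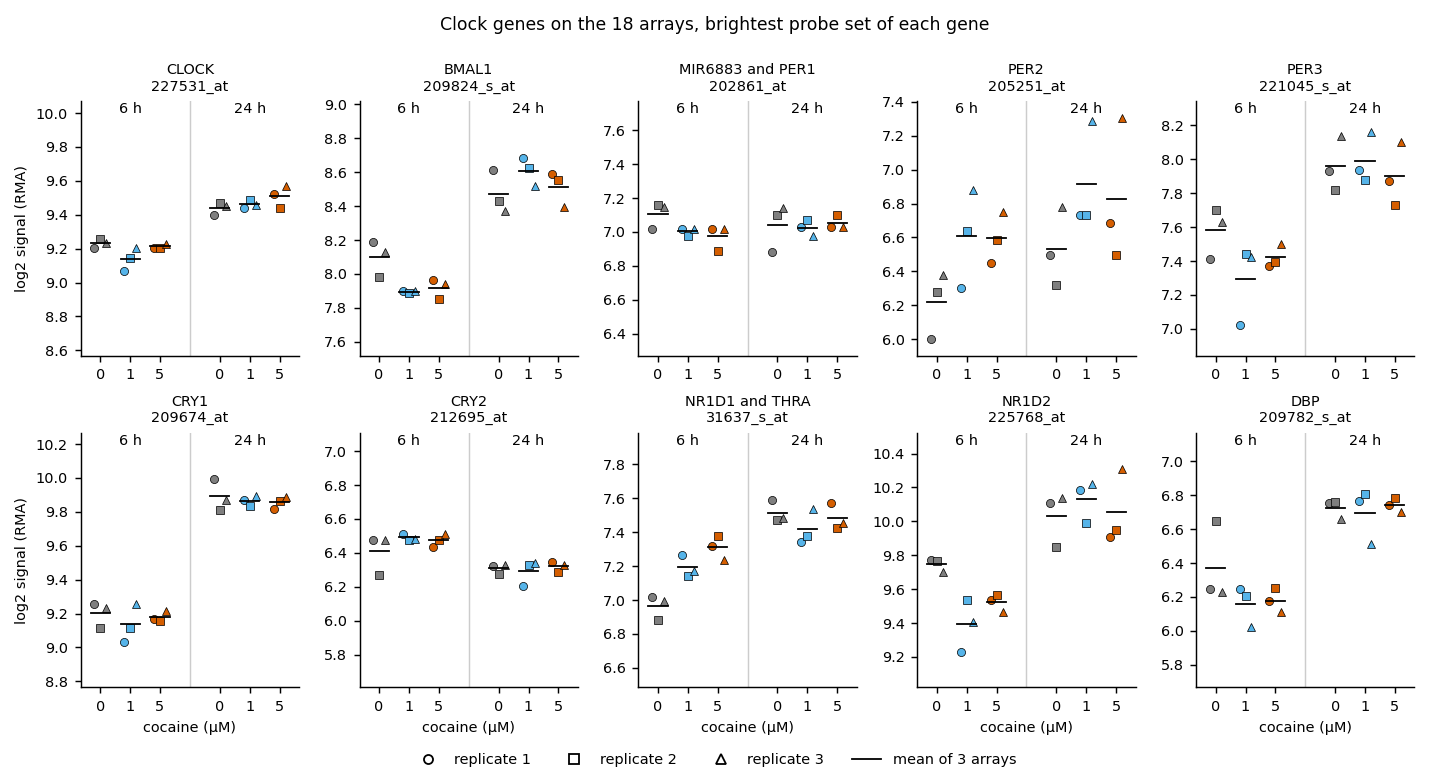
Log2 signal (RMA) of the brightest probe set of each clock gene on each array (points; the shape is the replicate number and the colour the dose) against the cocaine dose, at 6 h and at 24 h, with bars at the mean of 3 arrays. Every panel spans the same 1.5 units, and at 6 h the 5 μM arrays of NR1D1 and THRA (7.24 to 7.38) sit above all untreated ones (6.88 to 7.02).

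At 6 h, 31637_s_at stood at 7.02, 6.88 and 7.00 in untreated pools 1, 2 and 3, at 7.27, 7.14 and 7.17 after 1 μM and at 7.32, 7.38 and 7.24 after 5 μM. All 6 arrays of treated cells lay above all 3 untreated ones, and the ranges of the 2 cocaine doses overlapped. The difference between 5 μM and untreated cells was 0.35 (SE 0.064, 95% interval 0.20 to 0.49, adjusted p = 0.0602), or 1.27-fold. That between 1 μM and untreated cells was 0.23 (SE 0.064, adjusted p = 0.196). It was below 0.10 only with the block (adjusted p = 0.0715) and with array weights (0.098). Between 5 and 1 μM it was 0.12 (95% interval -0.03 to 0.26, adjusted p = 0.839). The call at 5 μM was lost when untreated array 2 (adjusted p = 0.185) or 3 (0.123) or any one of the 5 μM arrays 1, 2 and 3 (0.142, 0.201 and 0.168) was left out, with differences of 0.31 to 0.38.

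At 24 h the same probe set had 7.59, 7.47 and 7.48 in untreated cells, 7.34, 7.38 and 7.54 after 1 μM and 7.57, 7.43 and 7.45 after 5 μM. The groups overlapped, and the difference between 5 μM and untreated cells was -0.03 (SE 0.072, adjusted p = 0.976). The change at 5 μM was thus larger at 6 h than at 24 h, by 0.38 (SE 0.094, adjusted p = 0.0535), and this was the only clock probe set of 16 called in that test (6.25% against 4.21% of 22358). The difference between the times was not called without array 2 of untreated or of 5 μM cells at 6 h (adjusted p = 0.121 and 0.131), nor without untreated array 1 or 5 μM array 2 at 24 h (0.109 and 0.106).

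Which gene 31637_s_at reports was looked at in the other probe sets of the locus. The transcript listed for 204760_s_at is NR1D1 in RefSeq. Those listed for 31637_s_at and for 217476_at are not RefSeq entries, so their gene could not be looked up in this way. The probe set 204760_s_at lay below the filter, with 3.86, 3.74 and 3.89 in untreated cells at 6 h, 3.94, 3.91 and 3.80 after 1 μM and 3.94, 3.91 and 4.07 after 5 μM. Its 5 μM arrays also lay above the untreated ones, by 0.14, which did not pass when the filter was left out (adjusted p = 0.390). The third shared probe set, 217476_at, was at 3.95 to 4.19 on the 9 arrays of 6 h.

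Of the 3 probe sets annotated to THRA alone and kept, 1316_at had 6.20, 6.07 and 5.68 in untreated cells at 6 h, 6.16, 6.14 and 6.10 after 1 μM and 6.31, 6.32 and 6.32 after 5 μM. It did not pass the test at 5 μM (difference 0.34, SE 0.12, adjusted p = 0.198), and it passed only with the block (adjusted p = 0.0794). The other THRA probe sets, 204100_at and 35846_at, differed by -0.11 and -0.12 (adjusted p = 0.463 and 0.582). For 204100_at the change at 5 μM was lower at 6 h than at 24 h by -0.31 (SE 0.091, adjusted p = 0.0953), a call lost in 14 of 18 fits that left out 1 array. The probe sets of the locus thus did not share 1 direction, and the source of the signal of 31637_s_at was not tested further.

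**Figure D2:**
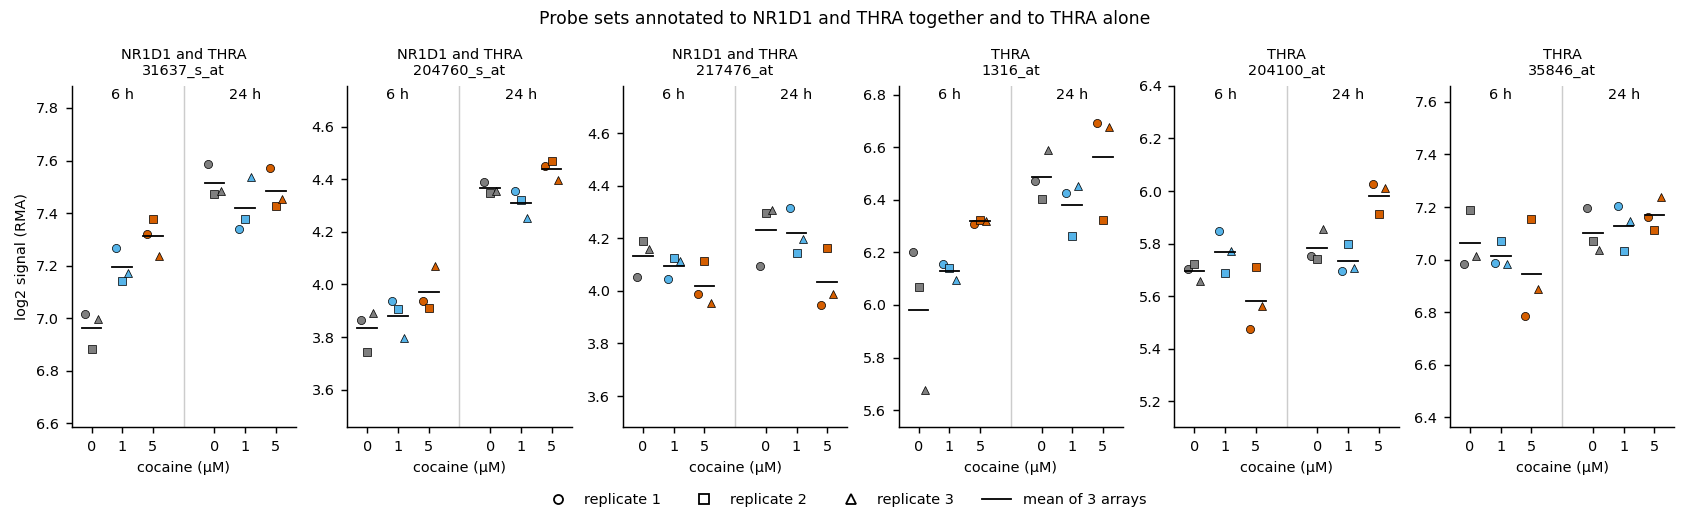
Log2 signal (RMA) against cocaine dose at 6 h and 24 h for 3 probe sets annotated to NR1D1 and THRA together and 3 to THRA alone, with a point per array and bars at the mean of 3 arrays. All panels span 1.3 units, and at 6 h 31637_s_at and 1316_at are higher on every 5 μM array than on any untreated one, while the groups of 204100_at and 35846_at overlap.

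BMAL1, the partner of CLOCK, was measured by 2 probe sets. For 209824_s_at the untreated arrays at 6 h had 8.19, 7.98 and 8.13, those of 1 μM had 7.90, 7.89 and 7.90 and those of 5 μM had 7.96, 7.85 and 7.94. All 6 arrays of treated cells lay below the untreated ones. The difference was -0.18 at 5 μM (SE 0.064, adjusted p = 0.204) and -0.21 at 1 μM (SE 0.064, adjusted p = 0.237), and both were called only with the block (adjusted p = 0.0649 and 0.0642).

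The second BMAL1 probe set, 210971_s_at, lay just inside the filter. At 6 h it had 5.75, 5.36 and 5.45 in untreated cells, 5.18, 5.24 and 5.28 after 1 μM and 5.58, 5.50 and 5.45 after 5 μM. Here the 1 μM arrays lay below those of both other doses, and the 5 μM arrays lay within the untreated range. The difference at 1 μM was -0.28 (SE 0.095, adjusted p = 0.266; with the block 0.099999), and at 5 μM it was -0.01 (adjusted p = 0.968). The 2 probe sets thus gave the same direction at 1 μM and different sizes at 5 μM.

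At 24 h, BMAL1 was called at neither dose. For 209824_s_at the untreated arrays had 8.61, 8.43 and 8.37, those of 1 μM had 8.68, 8.62 and 8.52 and those of 5 μM had 8.59, 8.55 and 8.39. For 210971_s_at the untreated arrays had 6.36, 6.12 and 5.93, those of 1 μM had 6.48, 6.56 and 6.14 and those of 5 μM had 6.12, 6.04 and 5.98. Both probe sets overlapped between treated and untreated cells, with differences of -0.09 to 0.26 and unadjusted p of 0.0849 or more. The change of 209824_s_at at 5 μM differed between 6 h and 24 h only with the block (-0.22, adjusted p = 0.0529; without it 0.343). In 210971_s_at, 5 μM minus 1 μM was 0.27 at 6 h and -0.34 at 24 h, without overlap at either time, and a call of that difference between the times (0.62, SE 0.17, adjusted p = 0.192) was made only with the block (0.0568).

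NR1D2, which encodes REV-ERB beta, gave 2 probe sets that went apart at 5 μM. The brighter, 225768_at, had 9.77, 9.77 and 9.70 in untreated cells at 6 h, 9.23, 9.54 and 9.41 after 1 μM and 9.54, 9.56 and 9.46 after 5 μM. Every array of treated cells lay below every untreated one. The difference was -0.22 at 5 μM (SE 0.078, adjusted p = 0.202; with the block 0.0839) and -0.35 at 1 μM (SE 0.078, adjusted p = 0.162; with the block 0.0502).

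The other NR1D2 probe set, 209750_at, had 7.93, 7.66 and 7.53 in untreated cells at 6 h, 7.34, 7.63 and 7.52 after 1 μM and 7.76, 7.83 and 7.89 after 5 μM. Its groups overlapped with untreated cells at both doses, and the differences were 0.12 at 5 μM (adjusted p = 0.612) and -0.21 at 1 μM (adjusted p = 0.421). At 24 h, 225768_at had 10.11, 9.85 and 10.14 in untreated cells, 10.18, 9.99 and 10.22 after 1 μM and 9.91, 9.95 and 10.31 after 5 μM, and all doses overlapped.

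**Figure D3:**
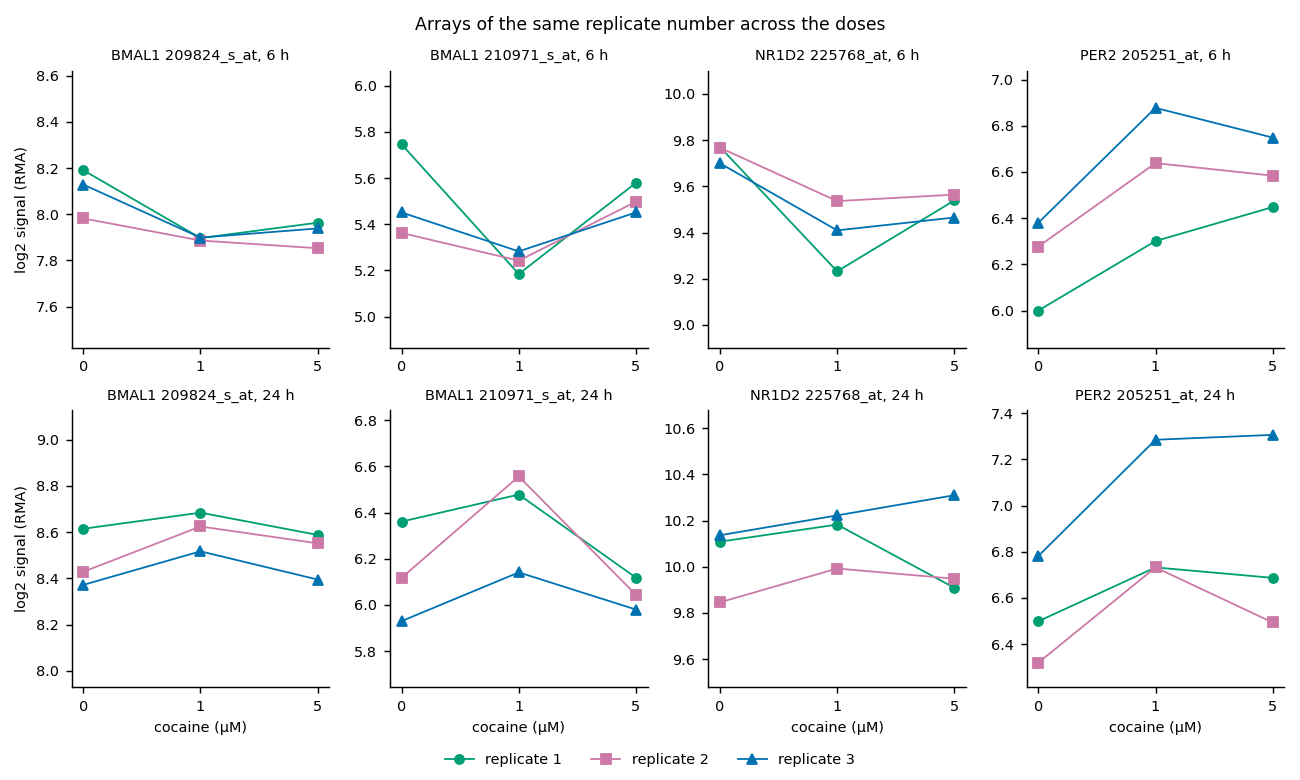
Log2 signal (RMA) of 2 BMAL1 probe sets, 1 NR1D2 and 1 PER2 probe set against cocaine dose, at 6 h (top) and 24 h (bottom), with a line for each replicate number and panels that span 1.2 units. At 6 h all 3 lines of BMAL1 209824_s_at and NR1D2 225768_at are lower at 1 and 5 μM than at 0 μM, and all 3 lines of PER2 are higher at both doses and both times.

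PER2, a repressor of CLOCK and BMAL1 that responds to stimuli as an early gene, had the widest spread of the clock probe sets at 6 h, 0.88 over the 9 arrays, against a median of 0.32 over the 16. The probe set 205251_at had 6.00, 6.28 and 6.38 in untreated cells, 6.30, 6.64 and 6.88 after 1 μM and 6.45, 6.58 and 6.75 after 5 μM. The 5 μM arrays lay above the untreated ones and the 1 μM arrays overlapped with them. The difference was 0.37 at 5 μM (SE 0.16, adjusted p = 0.267) and 0.39 at 1 μM (SE 0.16, adjusted p = 0.318), and both were called only with the block (adjusted p = 0.0237 and 0.0418).

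At 24 h, PER2 had 6.50, 6.32 and 6.78 in untreated cells, 6.73, 6.73 and 7.28 after 1 μM and 6.69, 6.49 and 7.31 after 5 μM. These groups overlapped, and the differences of 0.30 at 5 μM and 0.38 at 1 μM were not called with the block (adjusted p = 0.188 and 0.516) or without it (0.844 and 1.00). Set beside the untreated array of its own number, the treated array was higher in 12 of 12 pairs over both doses and times. The 1 μM and 5 μM arrays of a number share their untreated array, so these pairs are not independent. No other clock probe set reached 12 of 12, and the same count over all probe sets is not given here. The other PER2 probe set, 208518_s_at, which lay below the filter, was higher in 7 of 12 pairs. For the brighter PER2 probe set, the difference between the times at 5 μM was 0.08 (SE 0.30, adjusted p = 0.949). Genes whose deviations from their own mean were closest to those of PER2 over the 9 arrays of 6 h were SLC25A37, CHAF1A, SCML1, BRWD1 and BMPR2, with root mean square differences of 0.072 to 0.098, against a median of 0.28 over 21433 probe sets. They were picked for the smallest such differences, so the gap to the median follows from the choice. Over the 9 arrays of 24 h theirs were 0.24 to 0.32, and no median for that time is given here.

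The other repressors of the loop did not pass at any dose. PER3, a relative of PER2, had 7.41, 7.70 and 7.63 in untreated cells at 6 h, 7.02, 7.44 and 7.42 after 1 μM and 7.37, 7.39 and 7.50 after 5 μM. All groups overlapped, and the difference at 1 μM of -0.29 (SE 0.12, adjusted p = 0.332) was called only with the block (0.0771). For PER1, the shared probe set 202861_at, whose listed transcript is PER1 in RefSeq, had 7.02, 7.16 and 7.15, then 7.02, 6.97 and 7.02, then 7.02, 6.89 and 7.02 at 0, 1 and 5 μM, a difference at 5 μM of -0.13 (SE 0.061, adjusted p = 0.306). The second PER1 probe set, 36829_at, differed by -0.02 at 5 μM and by 0.10 at 1 μM.

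CRY1 and CRY2 encode the cryptochromes, which bind PER proteins and block CLOCK and BMAL1. CRY1 had 9.26, 9.12 and 9.23 in untreated cells at 6 h, 9.03, 9.12 and 9.26 after 1 μM and 9.17, 9.15 and 9.22 after 5 μM, so that every group overlapped. Its difference at 5 μM was -0.02 with a 95% interval of -0.18 to 0.14. For CRY2 it was 0.07 with an interval of -0.08 to 0.21.

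CLOCK had 3 probe sets above the filter, and at 6 h their differences at 5 μM lay between -0.04 and 0.03 (adjusted p = 0.809 or more). At 24 h 2 of them lay higher after 5 μM than in untreated cells without overlap. For 225856_at the untreated arrays had 8.01, 8.25 and 8.11, those of 1 μM had 8.20, 8.37 and 8.12 and those of 5 μM had 8.41, 8.37 and 8.34. The difference of 0.25 (SE 0.084, unadjusted p = 0.0150) did not pass after adjustment (0.590). For 204980_at it was 0.17 (adjusted p = 0.611), and for the brightest, 227531_at, 0.07 (adjusted p = 0.849). The change of 225856_at at 5 μM differed between 6 h and 24 h only with the block (-0.29, adjusted p = 0.0614; without it 0.180).

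DBP, the output of the loop, had 6.25, 6.65 and 6.23 in untreated cells at 6 h, 6.25, 6.21 and 6.03 after 1 μM and 6.17, 6.25 and 6.11 after 5 μM by 209782_s_at. The difference at 5 μM was -0.19 (SE 0.12, adjusted p = 0.427), and untreated array 2 stood above all others. Without that array the difference was -0.06. Its second probe set, 209783_at, lay just inside the filter and was lower on all 5 μM arrays (5.21, 5.32 and 5.32) than on the untreated ones (5.46, 5.36 and 5.48), a difference of -0.15 that did not pass (adjusted p = 0.304).

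**Figure D4:**
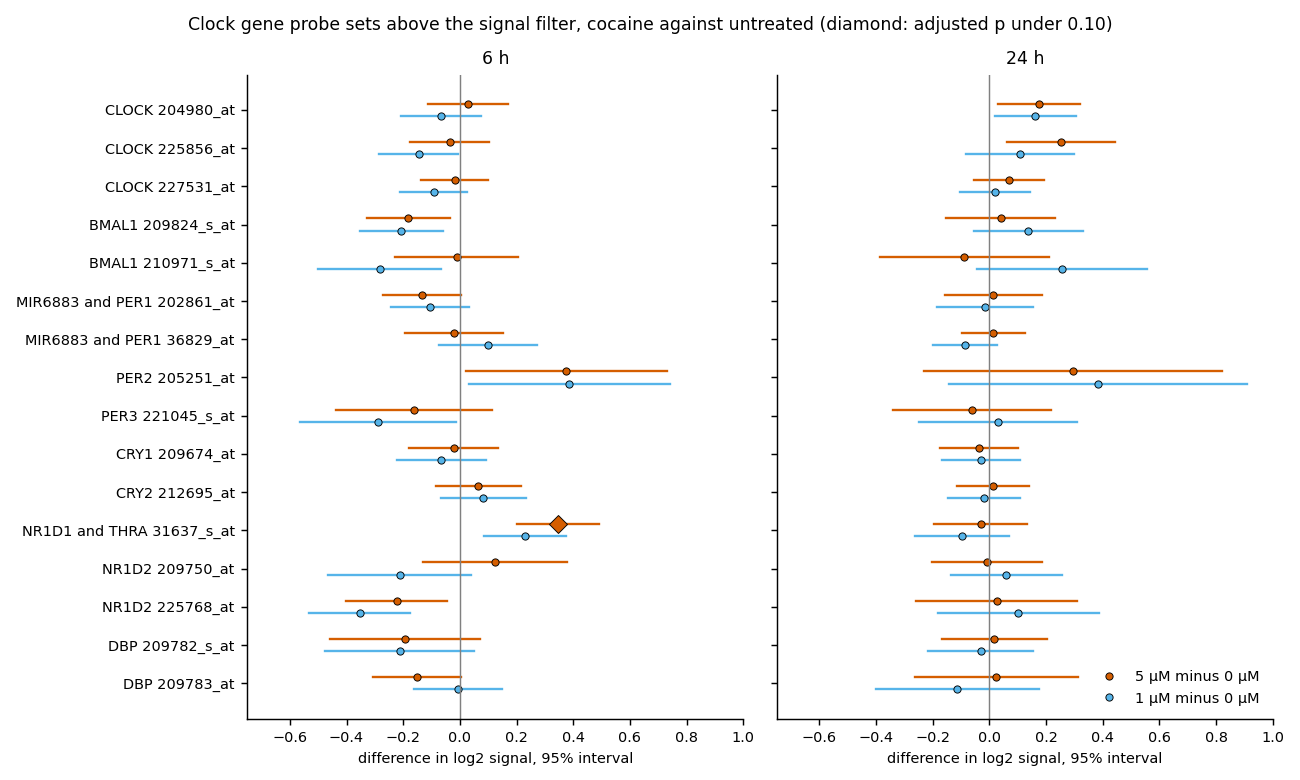
Difference in log2 signal (points) with its 95% interval (lines) for the 16 clock probe sets above the filter, 5 μM minus 0 μM and 1 μM minus 0 μM, at 6 h (left) and 24 h (right). A diamond marks an adjusted p under 0.10, which only NR1D1 and THRA 31637_s_at reached at 5 μM and 6 h (0.35).

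Between 1 μM and untreated cells at 6 h, 0 of 16 clock probe sets and 0 of 22455 probe sets in all were called in limma, 0% of either. At an unadjusted p under 0.05 there were 7 of 16 (43.8% against 14.3% of all), and 4 of 16 did not overlap (25% against 17.4%), 1 higher and 3 lower (7.27% and 10.2% of all). With the block 6 of 16 were called (37.5% against 12.5%). These were 31637_s_at and PER2, both higher, and 2 BMAL1 probe sets, NR1D2 225768_at and PER3, all lower, where 5.11% of all were called higher and 7.44% lower. The median difference of the 16 between 1 μM and untreated cells at 6 h was -0.10, against -0.01 over all probe sets. For the change at 1 μM between 6 h and 24 h, 0 of 16 were called without the block and 6 with it (37.5% against 5.23% of 22358). The 1 μM and 5 μM comparisons share the untreated arrays, so that a direction seen in both is not seen independently. Between 5 and 1 μM no clock probe set was called at either time, with the block or without it, and 2 of 16 at 6 h (12.5% against 6.45% of all) and 1 of 16 at 24 h (6.25% against 6.12%) had an unadjusted p under 0.05. At 6 h, 3 of 16 were higher after 5 than after 1 μM without overlap, against 6.26% of all.

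At 24 h, 0 of 16 clock probe sets were called at either dose against untreated cells, with the block or without it, where 3 of 24307 probe sets (0.0123%) were called at 5 μM and 0 (0%) at 1 μM, and with the block 0.00823% and 0%. At an unadjusted p under 0.05 there were 2 of 16 at 5 μM (12.5% against 7.2%) and 1 of 16 at 1 μM (6.25% against 3.37%), all of them CLOCK probe sets. At 5 μM, 2 of 16 did not overlap with untreated cells (12.5% against 10.4%), both higher, where 5.94% of all were higher and 4.51% lower. At 1 μM these were also 2 of 16 (12.5% against 7.2%), 1 higher and 1 lower (4.41% and 2.79% of all). In untreated cells, CRY1 stood at 9.89 at 24 h against 9.20 at 6 h, a gap of 0.69, and BMAL1 at 8.47 against 8.10 by 209824_s_at, while CRY2 stood at 6.31 against 6.41. The median gap over all probe sets kept at both times was 0.19. These gaps were not tested, because the arrays of each time were normalized among themselves.

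Other genes of the loop and its regulators were counted from lists. Of 16 probe sets of 9 further loop genes at 6 h, 0 were called at 5 μM, and with the block 8 of 16 were (50% against 18.6% of all), every one of them higher. The ROR receptors, known as activators of BMAL1, were among these. RORB 206443_at had 5.80, 4.87 and 4.54 in untreated cells, 5.65, 5.76 and 5.31 after 1 μM and 6.05, 6.03 and 5.88 after 5 μM, a difference at 5 μM of 0.92 (SE 0.28, adjusted p = 0.156; with the block 0.0448). RORA 210479_s_at differed by 0.74 (SE 0.40, adjusted p = 0.388; with the block 0.0304), and NPAS2, a relative of CLOCK, by 0.20 in 205459_s_at (SE 0.073, adjusted p = 0.208; with the block 0.0980). The brightest RORA probe set, 226682_at, had 8.82, 8.16 and 8.07 in untreated cells and 8.79, 8.40 and 8.27 after 5 μM. Its 5 μM arrays lay within the untreated range.

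Untreated array 1 stood apart from arrays 2 and 3 in both ROR genes, and RORB 231040_at had 10.49 on it against 9.40 and 9.49. CYP26A1, an enzyme that degrades retinoic acid and is induced by it, had 5.01, 10.69 and 10.99 on these 3 arrays and 4.95 to 5.61 on the 6 arrays of treated cells. Differences at 5 μM were also taken against untreated array 1 alone, a choice made after the values were seen. They were 0.18 for RORB 206443_at, -0.30 for RORB 231040_at, 0.10 for RORA 210479_s_at and -0.34 for RORA 226682_at. For the clock genes they were 0.30 for 31637_s_at, -0.27 for BMAL1 209824_s_at, -0.25 for NR1D2 225768_at and 0.59 for PER2. These differences took the mean of the 3 arrays of 5 μM, so offsets between replicate numbers enter them. On the 5 μM array of number 1 alone, RORA 210479_s_at had 7.24 against 6.69 on untreated array 1, and RORA 226682_at 8.79 against 8.82. There RORB 206443_at had 6.05 against 5.80, RORB 231040_at 10.28 against 10.49 and PER2 6.45 against 6.00. With all 3 untreated arrays the difference of RORB 231040_at was 0.39. Of the 16 clock probe sets, 10 kept the sign of their difference against array 1 alone and 6 did not, among them NR1D2 209750_at (-0.10 in place of 0.12). With 1 untreated array these are values of that array and have no replicate check, and the part of arrays 2 and 3 in the clock results was not tested.

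**Figure D5:**
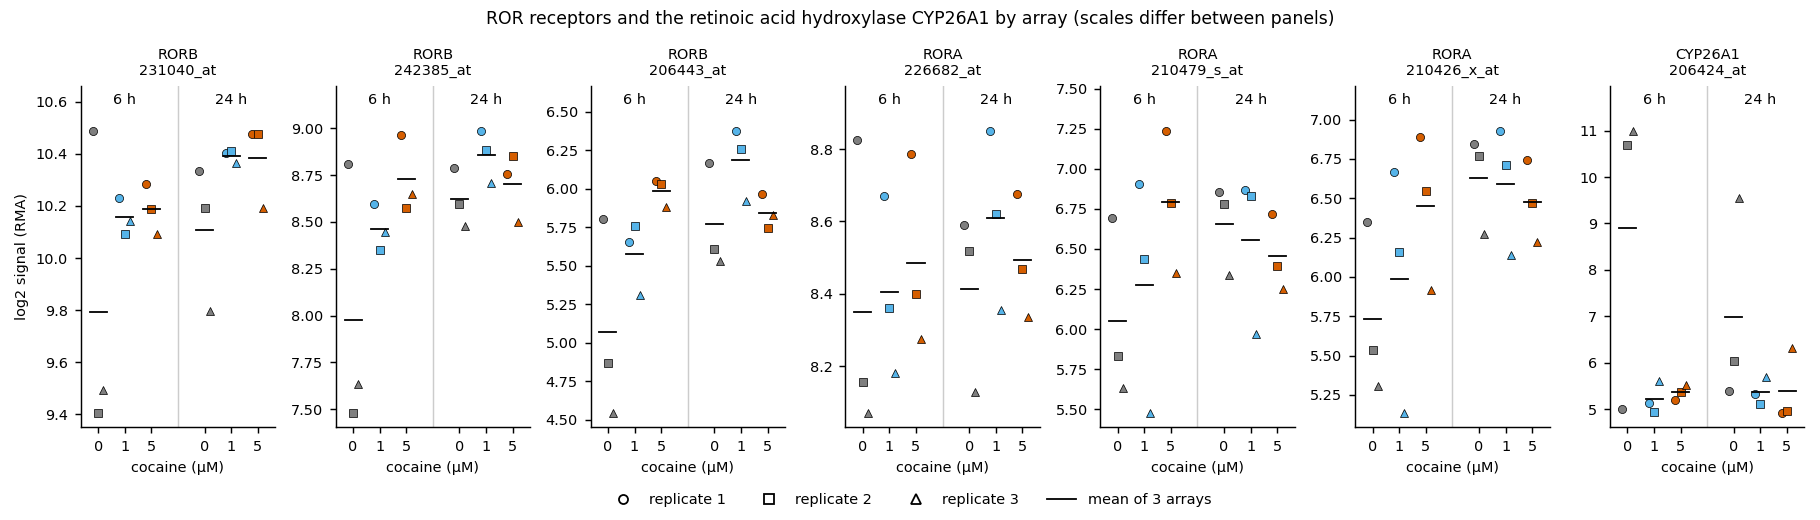
Log2 signal (RMA) of the RORB and RORA probe sets above the filter and CYP26A1 against cocaine dose at 6 h and 24 h, with a point per array and bars at the mean of 3 arrays; the scales differ between panels. At 6 h untreated arrays 2 and 3 are high in CYP26A1 (10.69 and 10.99), while untreated array 1 (5.01) lies among the treated arrays.

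Of 34 probe sets of 12 genes for the kinases, phosphatases and ligase parts that act on clock proteins, 1 was called at 5 μM and 6 h (2.94% against 2.98%). PPP1CB, a catalytic subunit of protein phosphatase 1, fell by 0.49 in 201407_s_at (SE 0.088, adjusted p = 0.0584), with 10.19, 10.22 and 9.93 in untreated cells, 9.56, 9.74 and 9.69 after 1 μM and 9.67, 9.56 and 9.64 after 5 μM. The call was lost without untreated array 2 (adjusted p = 0.185) or without any one of the 5 μM arrays 1, 2 and 3 (0.126, 0.200 and 0.188), and against untreated array 1 alone the difference was -0.57. The PPP1CB probe sets 201408_at and 201409_s_at differed by -0.36 and -0.25 without passing (adjusted p = 0.120 and 0.180), and 228222_at by -0.08. BTRC 224471_s_at and FBXW11 209455_at, of genes that mark PER proteins for degradation, differed by -0.27 and -0.20 (adjusted p = 0.155 and 0.147; with the block 0.0344 and 0.0601). Another BTRC probe set, 204901_at, was also kept. Against untreated array 1 alone it differed by 0.02, and 224471_s_at by -0.14. GSK3B, a kinase of several clock proteins, differed by 0.36 in 209945_s_at and by -0.21 in 226183_at, both called only with the block (0.0302 and 0.0913).

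Of 12 probe sets of 8 output genes, 0 were called at 5 μM and 6 h and 2 with the block (16.7% against 18.6% of all). POR, the reductase that supplies cytochromes P450 with electrons, had 7.45, 7.51 and 7.46 after 5 μM and 7.72, 7.59 and 7.61 in untreated cells at 6 h. At 24 h it had 7.86, 7.79 and 7.71 after 5 μM and 7.62, 7.58 and 7.56 in untreated cells. The 5 μM arrays lay below the untreated ones at 6 h and above them at 24 h, and the changes differed by -0.37 (SE 0.082, adjusted p = 0.0328). NAMPT, the rate-limiting enzyme of NAD salvage, differed by -0.20 in 217739_s_at at 6 h (adjusted p = 0.224). Its probe set 1555167_s_at did not share that direction, with 6.56, 6.00 and 6.10 in untreated cells at 6 h and 6.48, 6.51 and 6.35 after 5 μM. There the 5 μM arrays lay within the untreated range and above untreated arrays 2 and 3. Of 24 probe sets of 9 genes that respond to cAMP and other stimuli, 0 were called at 5 μM and 6 h and 2 with the block (8.33% against 18.6%), and CREM 230511_at, a cAMP-responsive modulator, differed by -0.35 (adjusted p = 0.247; with the block 0.0416). For CREB1 214513_s_at, the factor that binds the cAMP response element, the change at 5 μM was higher at 6 h than at 24 h by 0.57 (SE 0.16, adjusted p = 0.0925). That call was lost in 14 of the 18 fits that left out 1 array (adjusted p up to 0.209). By group means, the change at 5 μM was also higher at 6 h in CREB1 204312_x_at, 204313_s_at and 225565_at, but lower in 225572_at. At 6 h 225572_at had 9.87, 10.23 and 10.11 in untreated cells and 9.74, 9.91 and 9.97 after 5 μM. At 24 h it had 10.00, 10.10 and 10.19 in untreated cells and 9.87, 10.06 and 10.11 after 5 μM, with overlap at both times.

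Some measures of the arrays differed between treated and untreated cells. The difference in log2 signal between 2 control RNAs added to every array, bioD minus cre, was -1.64 to -1.50 after 5 μM and -1.54 to -1.52 after 1 μM, against -1.11 to -1.02 in untreated cells, with no overlap (exact permutation test, two-sided p = 0.1, which is the floor for 3 against 3). At 24 h the range was -1.28 to -1.12 over all doses. The 3′ minus 5′ difference of ACTB, a sign of RNA integrity, was 0.49 to 0.54 after 5 μM and 0.55 to 1.12 in untreated cells at 6 h, without overlap. At 24 h it ran the other way, at 0.69 to 1.03 after 5 μM and 0.49 to 0.65 in untreated cells, also without overlap (exact permutation test, two-sided p = 0.1 at either time). After 1 μM the ACTB difference overlapped with untreated cells at both times. The same difference for GAPDH at 6 h was 0.19 to 0.24 after 5 μM and 0.21 to 0.25 in untreated cells, with overlap. After 1 μM it was 0.15 to 0.17, below the untreated arrays (exact permutation test, two-sided p = 0.1). At 24 h GAPDH overlapped with untreated cells at both doses. The part of these measures in the clock results was not tested. Of the markers of sympathetic neuroblasts, GATA3, PHOX2A, ISL1, STMN2, TUBB3 and DBH had group means of 9.17 to 13.34 by their brightest probe sets, while TH, which makes dopamine precursors, stood at 3.44 to 3.94, below the filter. HAND2 stood at 7.49 to 7.90 and MYCN, by its brightest probe set, at 8.33 to 8.76. Of 13 probe sets of the neuroblast list, 0 were called at 5 μM and 6 h, with differences of -0.52 to 0.18. With the block 4 were called (30.8% against 18.6% of all, 1 higher and 3 lower). For PHOX2A 214609_at the change at 5 μM was lower at 6 h than at 24 h by -0.59 (SE 0.17, adjusted p = 0.0920), a call lost in 14 of 18 fits that left out 1 array.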

How the data were processed

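Expression was measured on 18 Affymetrix U133 Plus 2.0 arrays (0, 1 and 5 μM at 6 h and at 24 h, 3 arrays each). The log2 values deposited by the authors come from RMA, which corrects background, normalizes and summarizes probes by median polish. It was run on each time apart, and no tool version is given in the sources used here. Dose and time came from the sample titles, since at 5 μM other labels name an untreated control as well. Probe sets were named from the annotation of the platform, ARNTL counting as BMAL1.

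The threshold of log2(40) is that of the study; how it was applied over arrays is not given in the sources used here, and the number kept here differs from the study's. Probe sets with a symbol entered the fit if they averaged over log2(40) on the 9 arrays of that time, control probe sets left out, giving 22455 probe sets at 6 h and 24307 at 24 h. Doses were compared within a time with limma 3.58.1 in R 4.3.3 (lmFit and eBayes on the 9 arrays), with Benjamini-Hochberg adjustment over all probe sets kept and calls made at an adjusted p under 0.10. The changes at 6 h and 24 h were contrasted over 18 arrays. Adjusted p-values come from these fits, or, where the text names the block, array weights, a filter or an array left out, from the same limma fit so altered. Tables were handled with data.table (version 1.17.8) and pandas 2.3.3 and plots drawn with matplotlib 3.10.9. The number of arrays limits the precision, and the fit was checked on simulated data.

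The labels number the replicates 1 to 3 at every dose. Deviations from the group means correlated at 0.377 to 0.768 (6 h) and 0.424 to 0.733 (24 h) between arrays of the same number, 9 pairs each. Between arrays of different numbers they correlated at -0.632 to 0.166. Deviations within a group cancel, so positive values between same numbers go with lower ones between different numbers. The numbers were taken to pair the arrays in the block fits, while the main fits left the pairing out. The block with the replicate number was an alternative, beside other filters, sets of arrays, normalizations, an intensity trend, array weights, a threshold of 0.05, the brightest probe set of each gene and leave-one-out fits. One alternative, without 2 untreated arrays of 6 h, was added after seeing the data.

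The members and lists were chosen with earlier results of these data known. Probe sets with several symbols had been planned as listed only; because PER1 and NR1D1 have no others, they were counted among the members and the count without them is given. The text names every member, up to 6 genes of a list with the smallest p at 5 μM and 6 h, the list genes called in any comparison, and the 5 genes most like the member with the largest range at 6 h. The lists held 12 loop genes, 15 enzymes, 10 outputs and 10 stimulus genes. Of 6 markers of substrate-adherent cells (VIM, FN1, YAP1, CD44, PRRX1, SNAI2), 4 were kept at 6 h and 0 of their 10 probe sets were called at 5 μM. By their brightest probe sets, group means were 11.85 to 12.98 for VIM, 10.95 to 11.22 for FN1, 9.30 to 9.69 for SNAI2 and 7.92 to 8.43 for CD44, in the range of the neuroblast markers, while YAP1 and PRRX1 lay below the filter. Markers of other cell types (ALB, PTPRC, GFAP, PECAM1) had group means of 2.48 to 5.33.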

Additional observations from a re-analysis of the deposited data

Results flagged for a closer look

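The change of 31637_s_at, annotated to both NR1D1 and THRA, at 5 μM was 0.378 larger on the log2 scale at 6 h than at 24 h (SE 0.094, adjusted p = 0.0535 in limma), with 3 of 3 same-numbered pairs higher at 6 h and 0 of 3 at 24 h. The groups did not overlap at 6 h, so the 3 of 3 follows from that and adds nothing to it.

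Among probe sets below the signal filter, which were tested only where the filter was left out, 204760_s_at, annotated to NR1D1 and THRA, was above all untreated arrays on every 5 μM array at both times, by 0.139 in the mean at 6 h and by 0.074 at 24 h (adjusted p = 0.390 and 0.894). PER2 208518_s_at was above them at 6 h, by 0.0937, with 3.37, 3.26 and 3.31 after 5 μM against 3.22 on each untreated array (adjusted p = 0.511).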

How the results depend on the processing

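At 5 against 0 μM and 6 h, the count of clock probe sets called, 1, became 4 with the replicate block, 3 with array weights, and 0 with only the 6 arrays of both doses, with an adjusted p under 0.05 or, chosen after seeing the data, without the untreated arrays 2 and 3, where the lone untreated array is assumed to vary like the other groups; leaving out 1 array gave 0 to 1. At 1 against 0 μM and 6 h, the count of 0 became 6 with the block and 2 with array weights. For the difference in the 5 μM change between 6 h and 24 h, the count of 1 became 3 with the block and 0 with an adjusted p under 0.05 or without those 2 arrays, and leaving out 1 array gave 0 to 1. Over all probe sets, the block called 4184 in place of 670 at 5 μM and 6 h, 2818 in place of 0 at 1 μM and 6 h, and 3555 in place of 941 between the times. For the change at 1 μM between the times it called 6 clock probe sets in place of 0. Apart from these, and 1 BMAL1 probe set in 5 minus 1 μM between the times, the block changed no other call of a clock probe set. With array weights, the 3 calls at 5 μM were those of 31637_s_at (adjusted p = 0.0158), PER1 202861_at (0.0829) and NR1D2 225768_at (0.0975). The 2 at 1 μM were those of NR1D2 225768_at (0.0901) and 31637_s_at (0.098). The cause of these moves was not tested, save that fewer arrays leave fewer degrees of freedom.

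For the brightest probe set of each gene, these estimates changed sign. At 5 against 0 μM and 6 h, CRY1 became 0.0082 with array weights and 0.019 with quantile normalization, CLOCK 0.022 with quantile normalization, and without the untreated arrays 2 and 3 CRY2 became -0.0036, PER3 0.0077 and CLOCK 0.0082. Of 5 minus 1 μM at 6 h, DBP became -0.0058 with quantile normalization. At 24 h and 5 against 0 μM, array weights gave -0.019 for PER1 and 0.0029 for CRY1. At 24 h and 1 against 0 μM, PER1 became 0.0032 with median centring, CRY1 0.013 with array weights and PER3 -0.0046 with quantile normalization, which also gave CRY1 0.0074 in 5 minus 1 μM. Between the times, CRY1 became -0.0078 with median centring, and without the untreated arrays 2 and 3 of 6 h CRY1 became -0.038, CRY2 -0.016 and PER3 0.068.

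Leaving out 1 array, these ranges crossed 0, again for the brightest probe sets. At 5 against 0 μM and 6 h they were -0.064 to 0.0053 for CRY1 and -0.0036 to 0.10 for CRY2. Of 5 minus 1 μM at 6 h they were -0.049 to 0.014 for PER1, -0.16 to 0.12 for PER2, -0.0068 to 0.10 for CRY1, -0.0495 to 0.062 for DBP, -0.035 to 0.0030 for CRY2 and -0.0096 to 0.20 for PER3. At 24 h and 5 against 0 μM they were -0.067 to 0.063 for PER1, -0.078 to 0.013 for CRY1, -0.014 to 0.037 for DBP, -0.0100 to 0.11 for BMAL1, -0.0039 to 0.028 for CRY2, -0.16 to 0.027 for PER3, -0.10 to 0.099 for NR1D2 and -0.075 to 0.0058 for 31637_s_at. At 24 h and 1 against 0 μM they were -0.096 to 0.034 for PER1, -0.069 to 0.023 for CRY1, -0.087 to 0.061 for DBP, -0.044 to 0.025 for CRY2 and -0.056 to 0.12 for PER3. Of 5 minus 1 μM at 24 h they were -0.33 to 0.097 for PER2, -0.026 to 0.011 for CRY1, -0.043 to 0.10 for DBP and -0.013 to 0.056 for CRY2. Between the times they were -0.089 to 0.32 for PER2, -0.035 to 0.056 for CRY1 and -0.016 to 0.088 for CRY2. Of the 6 other probe sets, 3 crossed 0 at 5 against 0 μM and 6 h, BMAL1 210971_s_at (-0.089 to 0.10), CLOCK 204980_at (-0.0091 to 0.056) and PER1 36829_at (-0.057 to 0.042), and without the untreated arrays 2 and 3 NR1D2 209750_at became -0.099, CLOCK 204980_at -0.027 and PER1 36829_at 0.039. BMAL1 209824_s_at, NR1D2 225768_at, PER2 and 31637_s_at kept their direction at 6 h, both doses against 0 μM, under all alternatives run.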
